A study of Homo sapiens with 10 samples.

Results

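ESI017 human pluripotent stem cells exposed for 6 h to 8 µM CHIR99021, a small molecule that inhibits the kinase GSK3, were compared with the same cells left in mTeSR1 medium alone. ESI017 is an established human embryonic stem cell line, labelled wild type, and mTeSR1 is a defined medium that keeps such cells pluripotent. The comparison takes 4 of the 10 libraries of the series, picked by their treatment labels: 2 of CHIR99021 6 h and 2 of mTeSR1, with 1 library of each group from each of 2 biological repeats. The other 6 libraries, from cells exposed to WNT3A protein (300 ng/ml, for 6 h or for 18 h) or to 8 µM CHIR99021 for 18 h, helped to estimate the spread between libraries, and WNT3A at 6 h is also set against CHIR99021. Both CHIR99021 18 h libraries come from biological repeat 2, and the sources used here do not say whether they were separate wells. Every group was kept in mTeSR1 throughout and was plated the day before treatment. A single cell line was used, the labels give no time for the mTeSR1 wells, and they list no solvent control. Effects of CHIR99021, of its solvent and of time in culture therefore cannot be told apart.

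Canonical WNT signalling works by sparing β-catenin from destruction. In the absence of ligand, a complex of AXIN, APC, CK1 and GSK3 phosphorylates β-catenin, which is then ubiquitinated and degraded. WNT ligands bind Frizzled receptors with LRP5 or LRP6 and disable that complex, so that β-catenin accumulates, enters the nucleus and switches on genes bound by TCF and LEF factors. CHIR99021 blocks GSK3 itself and so acts below the receptors. GSK3 also has substrates outside the WNT pathway, among them glycogen synthase. In pluripotent cells, WNT activity is known for inducing the primitive streak, the embryonic source of mesoderm and endoderm.

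Messenger RNA was sequenced from whole cultures, and levels are given as CPM, that is counts per 1e+06 counts of a library after trimmed-mean scaling. Library totals were 1.83e+07 and 1.82e+07 estimated counts in CHIR99021 6 h, and 1.89e+07 and 1.81e+07 in mTeSR1. At this depth 3 counts correspond to 0.162 CPM in both CHIR99021 libraries, and to 0.157 and 0.17 CPM in the mTeSR1 libraries. All 8 markers checked for the pluripotent label were at 96.9 CPM or more in each of the 4 libraries. The mTeSR1 library of repeat 2 stood apart: across genes, the deviation from a gene's mean over all libraries correlated with transcript length (the longest in the annotation), with a Spearman coefficient of 0.349. The coefficient was -0.146 and -0.251 in the CHIR99021 libraries and -0.183 in the other mTeSR1 library. Among the 10 libraries only the WNT3A 6 h library of repeat 2 had a like value, 0.448, and these 2 are termed the length-skewed libraries.

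This difference carried into the comparison. In repeat 1 the median log2 ratio of CHIR99021 6 h over mTeSR1 was within -0.0312 to 0.0472 in 20 bins of transcript length. In repeat 2 it was 0.418 among the shortest transcripts (median 871 bases) and -0.449 among the longest (median 11508 bases). Short transcripts were thus higher and long ones lower in CHIR99021 of repeat 2. Across all 15251 genes tested, log2 ratios in the 2 repeats correlated with a Pearson coefficient of 0.267 and a Spearman coefficient of 0.16, and genes are not independent replicates.

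**Figure D1:**
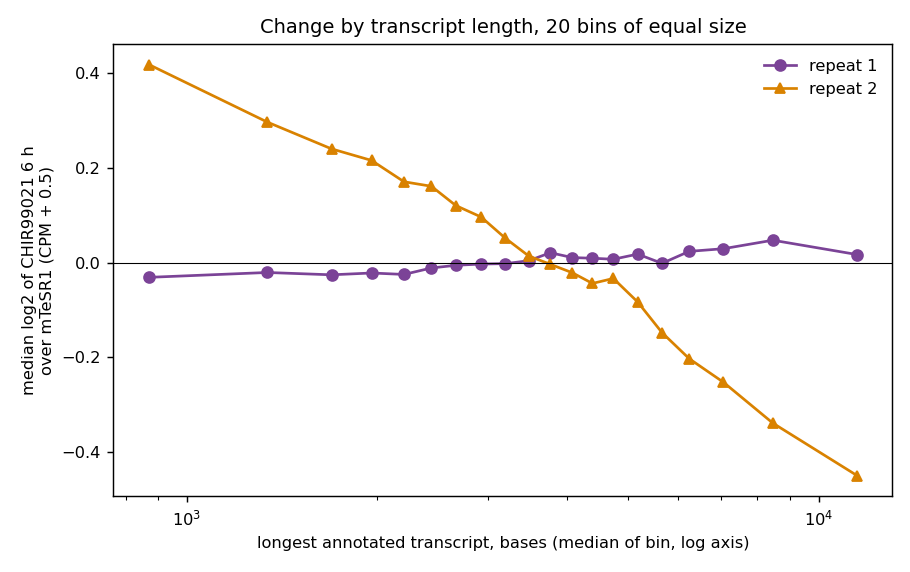
Median log2 ratio of CHIR99021 6 h over mTeSR1 (vertical axis, CPM + 0.5) in 20 bins of transcript length (horizontal log axis, bases), for repeat 1 (circles) and repeat 2 (triangles). The line for repeat 1 stays near 0, while that for repeat 2 runs from 0.418 at the left to -0.449 at the right.

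The genes that rose after 6 h of CHIR99021 included the WNT target SP5 and the WNT antagonist DACT1, the ligand genes NODAL and FGF19, the activin antagonist FST, and the transcription factor genes FOXB1 and NKX1-2. A total of 21 genes rose and 0 fell by edgeR's quasi-likelihood test with the biological repeat as a block (adjusted p, FDR, under 0.05), which is 0.138% of the genes tested. At an unadjusted p under 0.05 there were 1216 genes (7.97%), of which 575 were higher (3.77%) and 641 lower (4.2%). DESeq2 called 76 higher and 38 lower. For each of the 21 genes both CHIR99021 libraries were above both mTeSR1 libraries, which was so for 16.5% of all genes tested. The 21 genes were selected on these same libraries, so this separation adds no support to the calls. Their log2 changes lay between 0.95 and 8.28, against a median of 0.01 over all genes, and 13 exceeded 2. The median log2 ratio of the 21 genes was 2.21 in repeat 1 and 2.01 in repeat 2. Their median transcript length was 3650 bases, against 3616 bases over all genes tested. In mTeSR1 their median level was 5.83 CPM, against 21.0 CPM over all genes, and 5 of them averaged under 1 CPM. In whole-culture RNA, a change in the number of cells of a type and a change in RNA per cell cannot be told apart.

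These calls depended on having all 4 libraries and on the pairing by repeat. The count was 8 without CHIR99021 6 h replicate 1, and 1 without CHIR99021 6 h replicate 2, without mTeSR1 replicate 1 or without mTeSR1 replicate 2. Leaving out the CHIR99021 18 h libraries, both of repeat 2, gave 42 genes, of which 19 are among the 21. Without the repeat as a block the count was 3, namely FOXB1, RGMB and SP5. FOXB1 was called in all 16 alternatives, and the other 19 genes named here lost the call in between 3 and 9 of them.

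**Figure D2:**
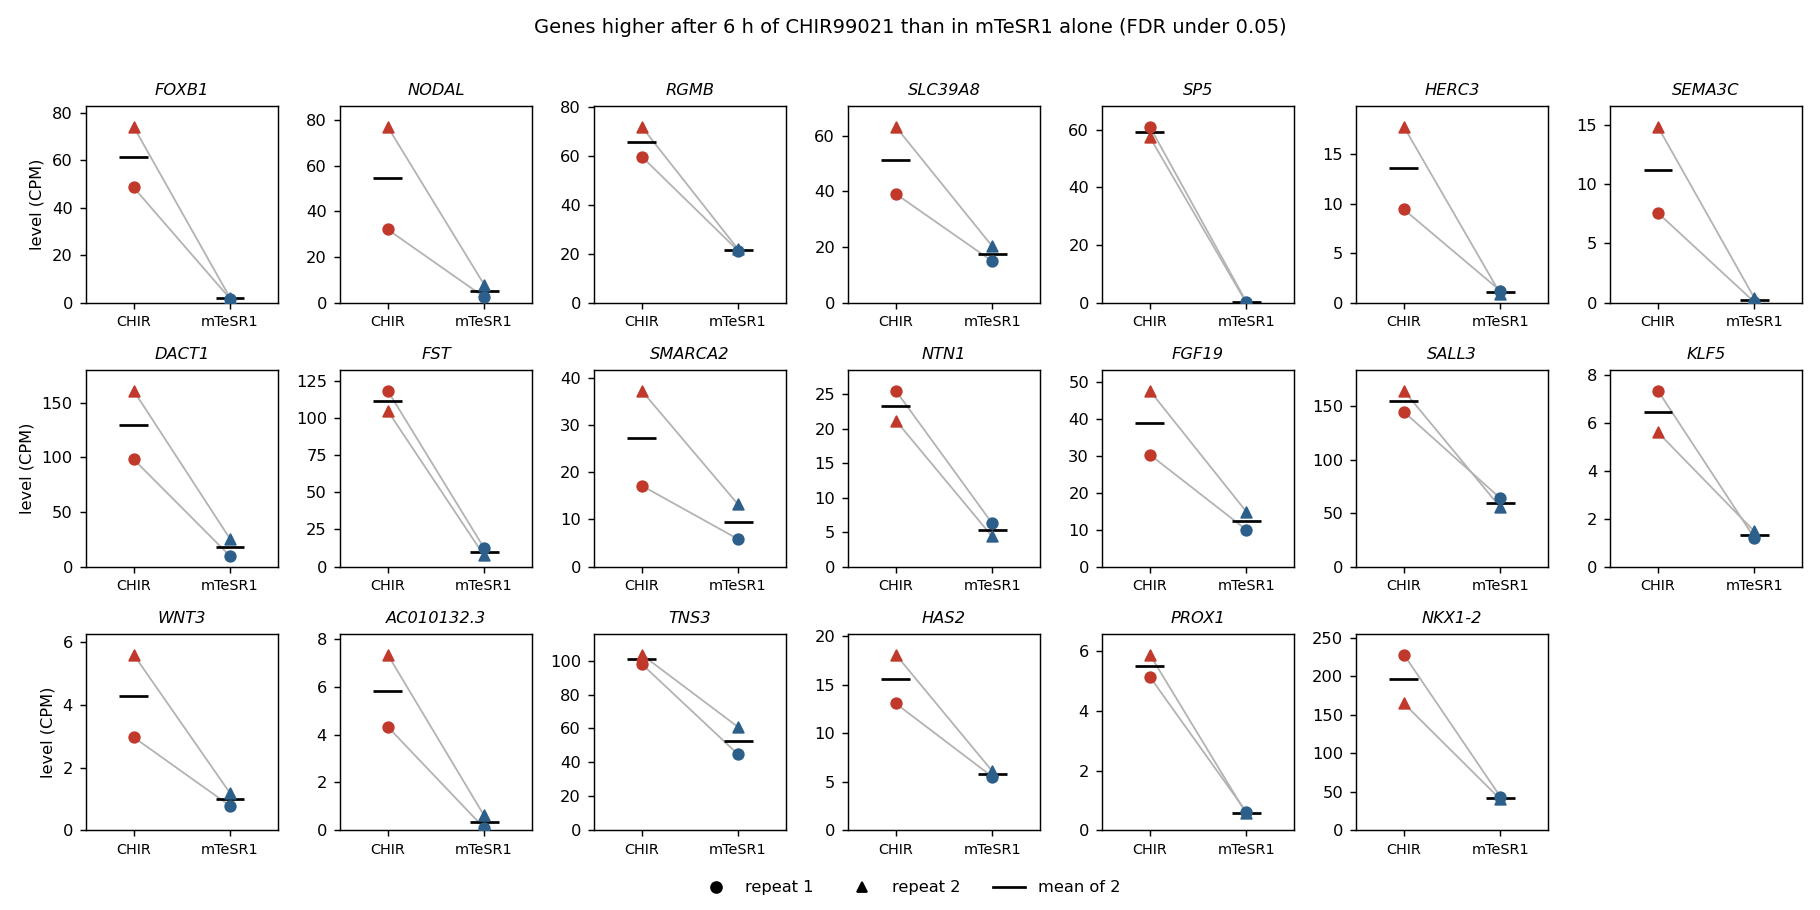
Level in CPM (vertical axes from 0, a scale for each gene) of 20 of the 21 genes that rose, in CHIR99021 6 h (left, red) and mTeSR1 (right, blue). Circles are repeat 1, triangles repeat 2, grey lines join a repeat and black bars are means of 2 libraries. In all 20 panels both CHIR99021 points lie above both mTeSR1 points.

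**Figure D3:**
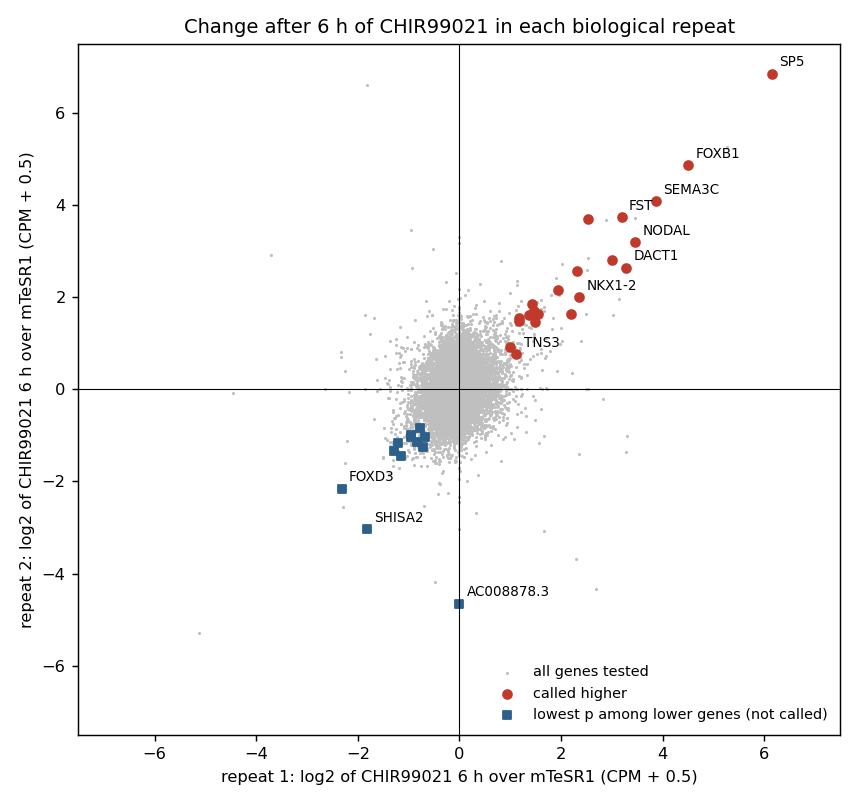
Log2 ratio of CHIR99021 6 h over mTeSR1 (CPM + 0.5) in repeat 1 (horizontal) and repeat 2 (vertical) for all 15251 genes tested (grey), the 21 that rose (red circles) and the 12 lower genes with the smallest p, none called (blue squares). The red points lie at the upper right, above 0 in both repeats, while AC008878.3 is displaced in repeat 2 alone.

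Among WNT pathway genes, SP5 had the largest log2 change, which was also the largest of the 21 genes. SP5 (ENSG00000204335, GRCh38 chromosome 2, 170715351 to 170718078, protein coding) encodes a zinc finger transcription factor that WNT signalling induces directly. It was at 61.0 and 57.4 CPM in CHIR99021 6 h, against 0.366 and 0 CPM in mTeSR1, or 2192 against 7 counts summed over the libraries of a group. Both CHIR99021 libraries were thus at a like high level, and SP5 was near the detection limit in mTeSR1. The log2 change was 8.28 (SE 0.77, FDR 0.00712), and with 1 mTeSR1 library at 0 it varied from 7.41 to 13.0 over 16 alternatives.

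DACT1 (ENSG00000165617, chromosome 14, 58633967 to 58648321) encodes a protein that binds Dishevelled and restrains WNT signalling. It was at 98.0 and 161 CPM in CHIR99021 6 h and at 9.62 and 25.3 CPM in mTeSR1. The lower CHIR99021 library was still well above the higher mTeSR1 library, and repeat 2 had the higher level in both groups. The log2 change was 2.96 (SE 0.28, FDR 0.00712).

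The promoters of SP5 and DACT1 are shown because theirs were the windows of called genes that hold the core TCF and LEF recognition motif, searched as CTTTGAT and CTTTGAA on both strands. RefSeq promoter windows (GRCh38.p14, 250 bases before to 50 after the annotated start) were found for 15 of the 21 genes, and 2 of those 15 (13.3%) held a match. A match was present in 446 of 11309 windows of genes tested (3.94%) and in 2409 of 35116 windows of all genes (6.86%). Matches are in capitals below, TTCAAAG being CTTTGAA read on the opposite strand, and only bases ahead of the annotated transcript starts are printed. SP5 is chr2:170715087-170715336 on the plus strand, with matches starting at positions -148, -109 and -84 from the RefSeq start. DACT1 is chr14:58633811-58633966 on the plus strand, with a match at position -214.
SP5: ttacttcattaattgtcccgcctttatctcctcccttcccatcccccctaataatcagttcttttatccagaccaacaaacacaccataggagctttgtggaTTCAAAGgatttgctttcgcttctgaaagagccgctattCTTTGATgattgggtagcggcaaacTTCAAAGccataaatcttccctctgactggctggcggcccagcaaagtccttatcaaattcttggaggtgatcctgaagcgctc
DACT1: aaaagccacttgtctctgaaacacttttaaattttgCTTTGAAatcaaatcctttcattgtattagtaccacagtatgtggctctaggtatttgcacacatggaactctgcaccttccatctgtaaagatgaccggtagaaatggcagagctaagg
SP5, the gene with the largest log2 change, has 3 matches and DACT1 has 1. A match in the letters is a description and does not show that a factor binds there.

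WNT3 encodes a WNT ligand that the mouse embryo needs to form the primitive streak. Its level was low, at 2.97 and 5.61 CPM in CHIR99021 6 h against 0.784 and 1.19 CPM in mTeSR1 (log2 change 2.09, SE 0.26, FDR 0.0285). The symbol is shared by 3 identifiers, and nearly all of its counts were on one that lies off the primary assembly, while the identifier on chromosome 17 was at 0 CPM in all 4 libraries. With each identifier tested alone, the one that holds nearly all of its counts had a log2 change of 2.12 and was called (WNT3, FDR 0.0393).

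Called genes outside the WNT pathway included several that encode signals or their modulators. NODAL (ENSG00000156574, chromosome 10, 70432315 to 70447951) encodes a TGF-β family ligand that acts in pluripotency and in streak formation. It was at 32.1 and 77.0 CPM in CHIR99021 6 h, against 2.46 and 7.94 CPM in mTeSR1. Repeat 2 had the higher level in both groups, and the within-repeat ratios were alike, with log2 values of 3.46 and 3.20. The log2 change was 3.43 (SE 0.29, FDR 0.00712).

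FST (ENSG00000134363, chromosome 5, 53480409 to 53487134) encodes follistatin, which binds and neutralises activin. It was at 119 and 105 CPM in CHIR99021 6 h and at 12.5 and 7.43 CPM in mTeSR1, so that the groups lay far apart (log2 change 3.52, SE 0.36, FDR 0.011). RGMB encodes a membrane-anchored co-receptor of BMP ligands. Its levels were 59.8 and 72.0 CPM after CHIR99021 against 21.3 and 21.9 CPM in mTeSR1 (log2 change 1.60, SE 0.14, FDR 0.00712), and it was among the 3 genes called without the block. FGF19 encodes a secreted fibroblast growth factor, at 30.3 and 47.7 CPM after CHIR99021 and 9.99 and 14.9 CPM in mTeSR1 (log2 change 1.64, SE 0.18, FDR 0.0149).

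A few called genes act in cell guidance, matrix or adhesion, and they were put together after their values were seen. SEMA3C, a secreted semaphorin of axon and neural crest guidance, was at 7.57 and 14.8 CPM in CHIR99021 6 h and at 0.0523 and 0.397 CPM in mTeSR1. That is 415 against 8 counts summed over each group, and the log2 change of 5.62 had an SE of 0.54 (FDR 0.00712). NTN1 encodes netrin-1, another guidance cue, and was at 25.5 and 21.2 CPM after CHIR99021 against 6.27 and 4.37 CPM in mTeSR1 (log2 change 2.16, SE 0.24, FDR 0.0149). HAS2, which encodes a hyaluronan synthase, was at 13.1 and 18.1 CPM after CHIR99021 against 5.54 and 6.12 CPM in mTeSR1 (log2 change 1.40, SE 0.18, FDR 0.0323). The groups did not overlap for these genes, as for all 21, which were selected on these same libraries. TNS3 encodes a tensin of focal adhesions and had the smallest change of the 21 genes, 0.95 (SE 0.12, FDR 0.0323), with 97.9 and 103 CPM after CHIR99021 against 44.8 and 60.8 CPM in mTeSR1.

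Several called genes encode transcription factors. FOXB1 (ENSG00000171956, chromosome 15, 60004222 to 60061730) encodes a forkhead factor known from the developing neural tube, and it had the lowest FDR. It was at 48.6 and 74.2 CPM in CHIR99021 6 h, against 1.67 and 2.04 CPM in mTeSR1 (log2 change 5.03, SE 0.19, FDR 2.66e-05). The groups were separated by more than an order of magnitude in both repeats. Over 16 alternatives the log2 change of FOXB1 varied from 4.82 to 5.21.

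NKX1-2 (ENSG00000229544, chromosome 10, 124445239 to 124450184), is a homeobox gene of the caudal epiblast in mouse and chick. Its levels were 228 and 165 CPM after CHIR99021 and 43.9 and 40.5 CPM in mTeSR1, with a log2 change of 2.19 (SE 0.29, FDR 0.0375). NKX1-2 lost the call in 9 of 16 alternatives, the most of any gene here. PROX1, a homeobox gene of lymphatic, lens and neural development, was at 5.13 and 5.88 CPM after CHIR99021 against 0.627 and 0.567 CPM in mTeSR1 (log2 change 3.18, SE 0.42, FDR 0.0342).

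SALL3, a spalt-type zinc finger gene, was at 145 and 164 CPM in CHIR99021 6 h and 63.8 and 55.4 CPM in mTeSR1 (log2 change 1.36, SE 0.16, FDR 0.0181). Its 2 identifiers both lie off the primary assembly and were summed, and each was higher in both CHIR99021 libraries. KLF5, a Krüppel-like factor gene, rose too, and was at 7.35 and 5.61 CPM after CHIR99021 against 1.20 and 1.47 CPM in mTeSR1 (log2 change 2.27, SE 0.28, FDR 0.0285).

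The remaining called genes had other roles. SMARCA2 encodes an ATPase of SWI/SNF chromatin remodelling and was at 17.1 and 37.3 CPM in CHIR99021 6 h against 5.80 and 13.2 CPM in mTeSR1. Its groups were separate by a narrow margin, since repeat 2 was the higher in both, and the paired log2 change was 1.53 (SE 0.17, FDR 0.0149). HERC3, a ubiquitin ligase gene, was at 9.40 and 17.7 CPM after CHIR99021 and 1.20 and 0.907 CPM in mTeSR1 (log2 change 3.60, SE 0.34, FDR 0.00712). SLC39A8 encodes a zinc and manganese transporter and was at 39.1 and 63.2 CPM after CHIR99021 against 14.9 and 20.3 CPM in mTeSR1 (log2 change 1.52, SE 0.13, FDR 0.00712).

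AC010132.3 is uncertain. The annotated gene (chromosome 7, 42909273 to 42932174) overlaps C7orf25 and PSMA2 on the same strand, so their reads can be divided differently between libraries. AC010132.3 was at 4.32 and 7.33 CPM in CHIR99021 6 h and 0.105 and 0.624 CPM in mTeSR1 (log2 change 4.04, SE 0.51, FDR 0.0317), whereas C7orf25 was at 3.19 and 2.97 CPM after CHIR99021 against 8.00 and 7.31 CPM in mTeSR1. Their sum was 7.51 and 10.3 CPM in CHIR99021 6 h against 8.10 and 7.94 CPM in mTeSR1, where the groups overlap.

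Beyond SP5, the known feedback inhibitors and direct targets of WNT had mostly higher levels after CHIR99021 but did not pass the test. Of 28 genes listed, 27 were tested and 1 rose. In 16 of the 27 (59.3%) both CHIR99021 libraries were above both mTeSR1 libraries, against 16.5% of all genes, and in 1 (3.70%), SHISA2, both were below, against 15.9%. Of the 27, 2 had few counts in 1 group, and such genes can pass the count filter through another group where they are high. DKK1 was low too, at 0.432 and 0.27 CPM after CHIR99021 against 0.209 and 0.17 CPM in mTeSR1. These shares are therefore a description and not a test. The median log2 change of the list was 0.92, against 0.01 over all genes, and it varied from 0.56 to 1.00 over 16 alternatives. DESeq2 called 6 of them higher and SHISA2 lower. The untested member was LGR5, at 0.216 and 0.162 CPM in CHIR99021 6 h and 0.0523 and 0.283 CPM in mTeSR1.

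AXIN2, a scaffold of the destruction complex and a standard feedback target, was at 104 and 112 CPM in CHIR99021 6 h against 39.3 and 31.7 CPM in mTeSR1. The groups were well apart, yet the log2 change of 1.62 (SE 0.30) had an FDR of 0.17. That FDR was 3.11e-06 by DESeq2, 3.12e-05 in a fit of the 4 libraries alone and 0.0133 without the CHIR99021 18 h libraries. No other alternative called AXIN2. For the other uncalled genes below, most alternatives likewise gave no call. CCND1, which encodes cyclin D1, was at 371 and 363 CPM after CHIR99021 and 158 and 210 CPM in mTeSR1 (log2 change 1.01, SE 0.16, FDR 0.0884). NKD1, a Dishevelled-binding inhibitor, was at 48.2 and 41.8 CPM after CHIR99021 against 11.8 and 16.3 CPM in mTeSR1 (log2 change 1.66, SE 0.56, FDR 0.541). In a fit of the 4 libraries alone the FDR of NKD1 was 6.55e-05, and no other alternative called it. That fit left 1 residual degree of freedom, against 4 in the main fit.

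SP8, a relative of SP5, was at 13.8 and 11.9 CPM after CHIR99021 and 4.03 and 3.12 CPM in mTeSR1 (log2 change 1.87, FDR 0.218). TNFRSF19, a receptor gene of the TNF family, had a log2 change of 2.01 (FDR 0.471) and LEF1, a TCF family effector, one of 2.71 (SE 1.29, FDR 0.637). LEF1 had an uneven level within groups, at 5.51 and 2.05 CPM after CHIR99021 against 1.05 and 0.113 CPM in mTeSR1. In the CHIR99021 18 h libraries LEF1 was at 5.31 and 56.3 CPM. Without those libraries the FDR was 0.0438 for LEF1 and 0.0205 for SP8. SHISA2 encodes a protein that holds back Frizzled and FGF receptors in the endoplasmic reticulum. It was lower, at 10.1 and 4.48 CPM after CHIR99021 against 36.9 and 40.4 CPM in mTeSR1 (log2 change -2.47, SE 0.44, FDR 0.155).

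Of 47 WNT ligands, receptors and members of the cytoplasmic or nuclear machinery, 45 were tested and 1, WNT3, rose. In 8 (17.8%) CHIR99021 was above mTeSR1 without overlap, near the 16.5% of all genes tested, and in 12 (26.7%) it was below, against 15.9% of all genes. The median log2 change was -0.04, with 0.03 under a transcript length offset, and DESeq2 called 2 higher, WNT3 and FZD10. The receptor gene FZD10 was at 4.22 and 5.12 CPM in CHIR99021 6 h and 0.314 and 0.283 CPM in mTeSR1 (log2 change 3.95, SE 0.65, FDR 0.0969). FZD5, another Frizzled receptor gene, was at 76.2 and 91.4 CPM after CHIR99021 against 125 and 239 CPM in mTeSR1, lower in both repeats without passing (log2 change -1.02, FDR 0.624). The ligand genes WNT5B and WNT10B had log2 changes of 2.57 (SE 0.95, FDR 0.591) and 2.89 (SE 1.25, FDR 0.625). In the CHIR99021 18 h libraries WNT5B was at 19.1 and 116 CPM. Without those libraries the FDR was 0.0438 for WNT5B and 0.0133 for FZD10.

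CHIR99021 acts on GSK3 protein, so the RNA of its target does not check the treatment. GSK3A was at 105 and 106 CPM in CHIR99021 6 h and 115 and 86.9 CPM in mTeSR1 (log2 change 0.08, SE 0.14, FDR 0.87). GSK3B was at 84.5 and 78.0 CPM after CHIR99021 against 80.4 and 105 CPM in mTeSR1 (log2 change -0.18, SE 0.16, FDR 0.747). For both genes the groups overlap, and the sign turned when both length-skewed libraries of repeat 2 were left out. CTNNB1, which encodes β-catenin, was at 474 and 351 CPM after CHIR99021 against 484 and 581 CPM in mTeSR1 (log2 change -0.37, SE 0.20, FDR 0.663).

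Of 25 genes of the primitive streak and mesendoderm, 19 were tested and 2, NODAL and WNT3, rose. In 11 of the 19 (57.9%) CHIR99021 was above mTeSR1 without overlap, against 16.5% of all genes, and in 2 (10.5%) it was below. This share can be raised by 3 members of few counts, which could pass the count filter through another group. Further members were low in mTeSR1 too, among them TBX3 at 0.105 and 0.17 CPM and HHEX at 0.157 and 0.17 CPM. They could pass the filter in the same way, so this share is a description and not a test. The median log2 change of the list was 1.73, or 1.70 with the 3 members of few counts set to the floor, and 1.36 to 1.90 over the alternatives. DESeq2 called 4 of them higher, adding FGF8 and TBXT. TBXT, the brachyury gene that marks the streak, was at 1.24 and 1.56 CPM in CHIR99021 6 h and had 0 counts in both mTeSR1 libraries, a total of 52 counts with CHIR99021 against 0 in mTeSR1. It was at least 8.59-fold higher by a floor of 3 counts per library (FDR 0.684). That FDR was 0.0338 without the CHIR99021 18 h libraries, in which TBXT was at 3.52 and 49.2 CPM.

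EOMES, a T-box gene of mesoderm and endoderm, was at 3.89 and 2.53 CPM after CHIR99021 against 0 and 0.283 CPM in mTeSR1 (log2 change 4.50, SE 1.60, FDR 0.569). In a fit of the 4 libraries alone, with 1 residual degree of freedom, the FDR of EOMES was 0.00227. No other alternative called it. FGF8, a streak growth factor gene, was at 2.86 and 8.30 CPM after CHIR99021 against 0.784 and 2.15 CPM in mTeSR1 (log2 change 1.91, SE 0.61, FDR 0.5). MIXL1, a homeobox gene of the streak, overlapped between groups, at 1.08 and 3.61 CPM after CHIR99021 against 0.471 and 1.30 CPM in mTeSR1. The 6 members that were not tested, GSC, MESP1, MESP2, SOX17, GATA6 and MSGN1, were at or below 0.418 CPM in all 4 libraries, and SOX17 was at 0.

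Caudal and posterior patterning genes had the highest share of members above mTeSR1. Of 22 genes, 19 were tested and 2, FOXB1 and NKX1-2, rose. In 15 (78.9%) both CHIR99021 libraries were above both mTeSR1 libraries, against 16.5% of all genes, and in 1 (5.26%) they were below. As 7 of the 19 had few counts in 1 group, they could pass the count filter through another group where they are high. This share is therefore a description and not a test. The median log2 change was 2.57, or 1.87 with 7 members of few counts set to the floor. DESeq2 called 6 higher and 0 lower. GBX2, a homeobox gene of the midbrain and hindbrain boundary, was at 8.59 and 9.38 CPM in CHIR99021 6 h and 1.10 and 1.13 CPM in mTeSR1 (log2 change 3.02, SE 0.87, FDR 0.471). That FDR was 0.0473 by DESeq2 and 0.00996 without the CHIR99021 18 h libraries, in which GBX2 was at 21.8 and 117 CPM. FGF18 was at 2.54 and 3.50 CPM after CHIR99021 against 0.889 and 0.283 CPM in mTeSR1 (log2 change 2.35, SE 0.59, FDR 0.367). Of the CDX and HOX genes of the list, CDX2 was at 1.46 and 1.08 CPM after CHIR99021. In mTeSR1 CDX2 was near the detection limit, at 0.157 and 0 CPM. HOXB1 was at 0.324 and 0.431 CPM after CHIR99021 against 0 counts in mTeSR1.

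**Figure D4:**
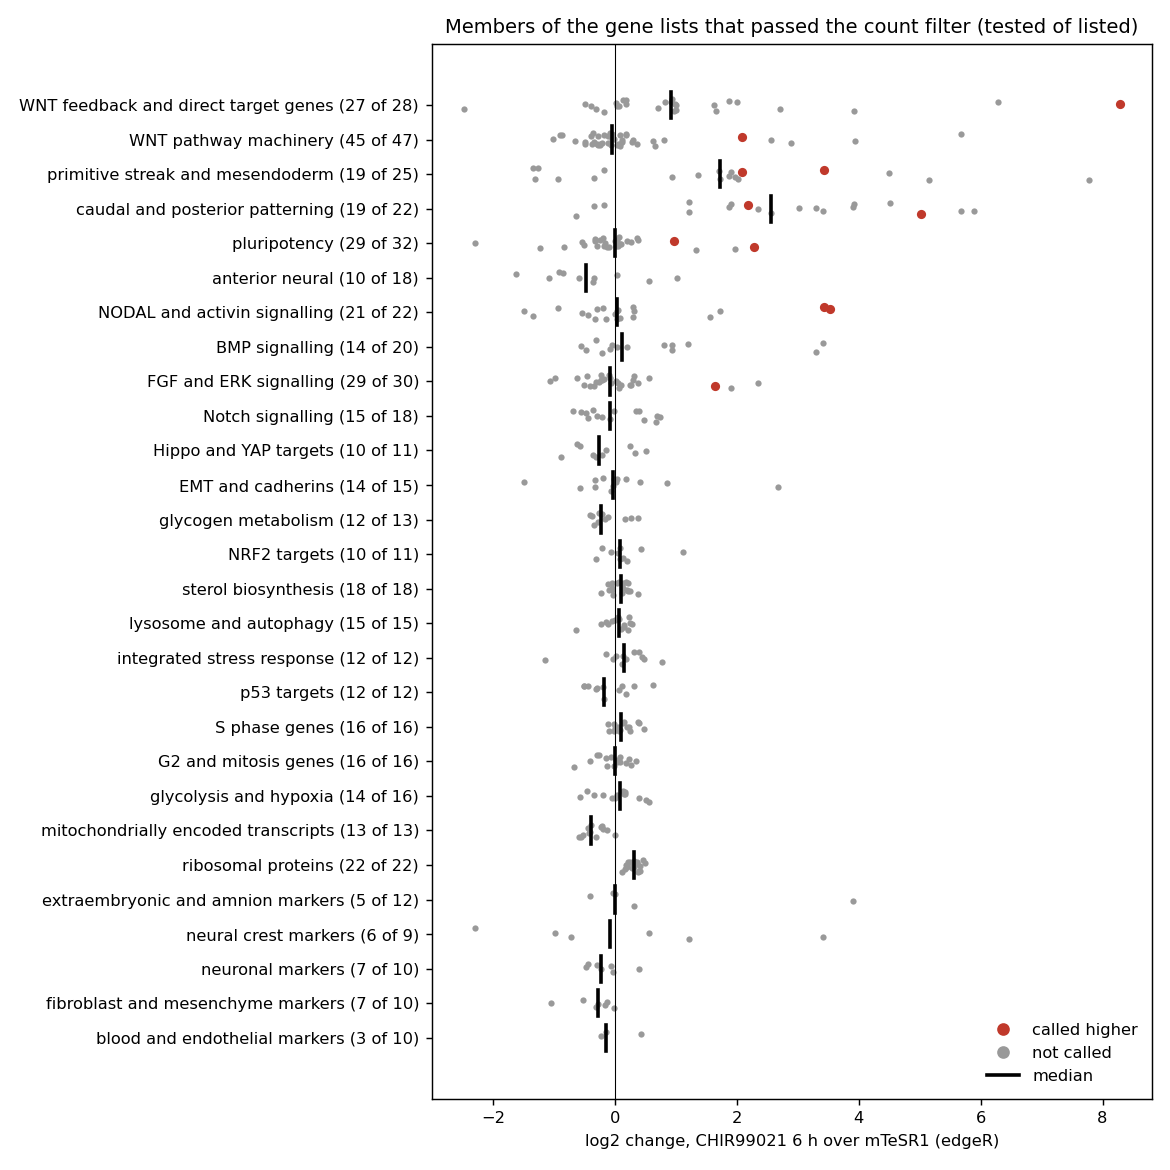
Log2 change of CHIR99021 6 h over mTeSR1 (horizontal axis) of each tested member of 28 gene lists (rows, with tested and listed numbers). Red points rose, grey points were not called and black bars are list medians, which stand at 0.92, 1.73 and 2.57 for the WNT feedback, streak and caudal lists.

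Of 32 pluripotency genes, 29 were tested. KLF5 was among those that rose and 0 fell by edgeR, with 4 higher and 4 lower (13.8% each) at an unadjusted p under 0.05, against 3.77% and 4.2% of all genes. FOXD3 was called lower by DESeq2, which also called KLF5 higher. Without overlap, 6 (20.7%) were above and 7 (24.1%) below mTeSR1, against 16.5% and 15.9% of all genes. The median log2 change was 0.01 and took the other sign in 11 of 16 alternatives. KLF4, a relative of KLF5, was at 3.13 and 4.96 CPM in CHIR99021 6 h and 1.62 and 1.53 CPM in mTeSR1 (log2 change 1.33, FDR 0.367).

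The core factors overlapped between groups. SOX2 was at 308 and 323 CPM in CHIR99021 6 h and 342 and 264 CPM in mTeSR1 (log2 change 0.07, FDR 0.914), and NANOG at 96.9 and 144 CPM after CHIR99021 against 103 and 189 CPM in mTeSR1 (log2 change -0.24, FDR 0.684). POU5F1, summed over 4 identifiers, was at 1573 and 1671 CPM after CHIR99021 against 1655 and 950 CPM in mTeSR1 (log2 change 0.38, FDR 0.729). The low mTeSR1 value of POU5F1 is that of repeat 2. Without both length-skewed libraries of repeat 2 the sign turned for SOX2 and POU5F1.

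FOXD3, a forkhead gene of pluripotent and neural crest cells, had the smallest p among lower genes. It was at 10.4 and 9.87 CPM in CHIR99021 6 h and 54.0 and 45.6 CPM in mTeSR1. The groups were far apart and alike in both repeats, with a log2 change of -2.29 (SE 0.36) and an FDR of 0.0884. That FDR was 6.36e-08 by DESeq2 and 0.0133 without the CHIR99021 18 h libraries. PRDM14, a pluripotency regulator gene, was at 46.9 and 50.6 CPM after CHIR99021 against 96.1 and 139 CPM in mTeSR1 (log2 change -1.23, FDR 0.611), and DNMT3B, a de novo DNA methyltransferase gene, had a log2 change of -0.54 (FDR 0.597).

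The 12 lower genes of smallest p also include SHISA2 and C7orf25, whose values are given with WNT targets and with AC010132.3. SPATS2L was at 50.4 and 74.3 CPM in CHIR99021 6 h and 90.6 and 165 CPM in mTeSR1 (log2 change -0.99, SE 0.16, FDR 0.0884). PDZRN3, a ubiquitin ligase gene, was at 14.9 and 12.3 CPM after CHIR99021 against 24.2 and 25.8 CPM in mTeSR1 (log2 change -0.88, FDR 0.168). SCUBE1, RNF125, ARRB1, PPP1R1B, FAM214A and Z83844.3 had log2 changes of -1.03, -0.84, -1.05, -1.05, -1.51 and -1.49, with FDR between 0.0969 and 0.187. AC008878.3 was listed at 0 in both CHIR99021 libraries and in mTeSR1 of repeat 1 and at 12.1 CPM in mTeSR1 of repeat 2, so that 1 library decided its place.

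Of 18 anterior neural genes listed, 10 were tested and none was called by edgeR or by DESeq2. At an unadjusted p under 0.05, 1 was higher and 1 lower, against 3.77% and 4.2% of all genes. The median log2 change was -0.47, with 0.40 when mTeSR1 replicate 1 was left out. HESX1, an anterior homeobox repressor gene, was at 6.32 and 5.61 CPM in CHIR99021 6 h and 13.5 and 9.18 CPM in mTeSR1 (log2 change -0.92, SE 0.37, FDR 0.6).

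In the NODAL and activin list, the ligand NODAL and the activin antagonist FST rose among 21 tested of 22. The list median was 0.03 and took the other sign in 5 of 16 alternatives. LEFTY1, a NODAL antagonist and target, overlapped between groups, at 2.32 and 13.6 CPM in CHIR99021 6 h and 8.57 and 21.7 CPM in mTeSR1 (log2 change -1.35, SE 1.06, FDR 0.721). Both groups had more LEFTY1 in repeat 2, as for NODAL.

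In the BMP list none of 14 tested of 20 members was called by edgeR, and DESeq2 called ID3. At an unadjusted p under 0.05, 5 were higher (35.7%, against 3.77% of all genes) and 0 lower (against 4.2%). Of the 14, 1 had few counts in 1 group and could pass the count filter through another group where it is high. These shares are therefore a description and not a test. The median was 0.12, and it was -0.003 in 1 alternative. ID3, which encodes an inhibitor of helix-loop-helix factors and is a BMP target, was at 128 and 120 CPM in CHIR99021 6 h and 90.5 and 47.2 CPM in mTeSR1 (log2 change 0.94, SE 0.23, FDR 0.351). ID2, its relative, was at 21.2 and 22.3 CPM after CHIR99021 against 10.1 and 9.01 CPM in mTeSR1 (log2 change 1.20, SE 0.37, FDR 0.492). The ligand gene BMP4 was at 3.62 and 2.16 CPM after CHIR99021 against 1.67 and 1.30 CPM in mTeSR1 (log2 change 0.94, FDR 0.531).

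For FGF and ERK signalling, FGF19 rose among 29 tested of 30 members, and the median of -0.08 took the other sign in 2 alternatives. DUSP6, a phosphatase that restrains ERK, was at 52.4 and 40.9 CPM in CHIR99021 6 h and 104 and 88.2 CPM in mTeSR1 (log2 change -1.06, SE 0.25, FDR 0.326). Its groups did not overlap, and DESeq2 called it lower. Notch genes (15 tested of 18) and Hippo and YAP targets (10 tested of 11) had no call by edgeR or DESeq2, with medians of -0.08 and -0.26, of which the first took the other sign in 2 alternatives. At an unadjusted p under 0.05 the Notch list had 1 higher and 1 lower member (6.67% each), and the Hippo list 1 higher (10%) and 4 lower (40%), against 3.77% higher and 4.2% lower over all genes. The Hippo list held CCN2 and AXL, at log2 changes of -0.57 (FDR 0.481) and -0.89 (FDR 0.516), and AMOTL2 at 0.51 (FDR 0.516). Genes of cadherins and epithelial-mesenchymal transition (14 tested of 15) had no call by either tool, 3 higher (21.4%) and 1 lower member (7.14%) at an unadjusted p under 0.05, and a median of -0.03 that took the other sign in 3 alternatives. ZEB2, a repressor gene of the transition, was above mTeSR1 without overlap but uneven within groups, at 12.2 and 3.56 CPM after CHIR99021 against 2.61 and 0.113 CPM in mTeSR1 (log2 change 2.68, SE 0.84, FDR 0.492). CDH6, a cadherin gene, was higher within each repeat while the groups overlapped, at 13.6 and 4.42 CPM after CHIR99021 against 8.52 and 1.98 CPM in mTeSR1 (log2 change 0.85, FDR 0.554). PCDH10, a protocadherin gene, was at 1.24 and 1.40 CPM after CHIR99021 against 2.77 and 4.82 CPM in mTeSR1 (log2 change -1.48, FDR 0.342).

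Lists chosen for other functions of GSK3, for stress and for metabolism had no call by edgeR, and DESeq2 called VLDLR alone. Glycogen metabolism (12 tested of 13) had a median log2 change of -0.22, sterol biosynthesis (18 of 18) 0.10, targets of the oxidative stress factor NRF2 (10 of 11) 0.09, and lysosome and autophagy genes (15 of 15) 0.06. None of these 4 medians changed sign over 16 alternatives. At an unadjusted p under 0.05, 2 NRF2 targets (20%) and 1 lysosome gene (6.67%) were higher, against 3.77% of all genes. In the glycogen list 1 member (8.33%) was lower, against 4.2%. Without overlap, 5 glycogen genes (41.7%) were below mTeSR1, against 15.9% of all genes, and 2 (16.7%) above, against 16.5%. Of the sterol, NRF2 and lysosome lists 27.8%, 30% and 33.3% were above without overlap and 0 below. What these shares reflect was not tested. The integrated stress response had a median of 0.16 over 12 genes, with ATF4, its central factor, at 416 and 397 CPM in CHIR99021 6 h and 363 and 246 CPM in mTeSR1 (log2 change 0.45, FDR 0.625). VLDLR, a lipoprotein receptor gene in that list, was at 15.3 and 18.8 CPM after CHIR99021 against 28.4 and 49.6 CPM in mTeSR1 (log2 change -1.14, SE 0.23, FDR 0.214). Targets of p53 had a median of -0.18, and genes of glycolysis and hypoxia one of 0.08, with signs that turned in 2 alternatives and in 1. At an unadjusted p under 0.05 the p53 list had 2 lower members (16.7%) and 0 higher. The glycolysis list had 2 higher and 2 lower (14.3% each).

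S phase genes had no call by either tool and a median of 0.11 over 16 genes, and PCNA, the sliding clamp of DNA replication, was at 215 and 252 CPM in CHIR99021 6 h and 191 and 166 CPM in mTeSR1 (log2 change 0.38, FDR 0.614). At an unadjusted p under 0.05, 2 S phase genes (12.5%) were higher and 0 lower, against 3.77% and 4.2% of all genes. The median of 16 genes of G2 and mitosis was 0.01 and took the other sign in 10 alternatives. MKI67, a proliferation marker, was at 223 and 241 CPM after CHIR99021 against 241 and 584 CPM in mTeSR1, where mTeSR1 of repeat 2 was apart from the other 3 libraries.

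Transcripts that move with library composition differed mainly in repeat 2. The 13 mitochondrially encoded transcripts had a median log2 ratio of -0.08 in repeat 1 and -0.65 in repeat 2, and took 3.71% and 5.02% of counts in CHIR99021 6 h and 3.94% and 6.73% in mTeSR1. Ribosomal protein genes (22 tested) had a median of 0.02 in repeat 1 and 0.62 in repeat 2. Neither list had a call by edgeR or DESeq2, and at an unadjusted p under 0.05 the mitochondrial list had 5 lower members (38.5%, against 4.2% of all genes) and the ribosomal list 0. Their part in the results was not tested.

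Markers of other cell types were summed in each library. Of 12 extraembryonic and amnion markers, 5 were tested with no call, and HAND1, CGA and XAGE2 were at 0 in all 4 libraries, with summed levels of 260 and 260 CPM in CHIR99021 6 h and 308 and 362 CPM in mTeSR1. Neural crest markers (6 tested of 9, TFAP2B at 0) summed to 24.4 and 16.7 CPM after CHIR99021 against 72.1 and 56.9 CPM in mTeSR1, where FOXD3 made up most of the sum. NGFR, another of them, was at 5.73 and 4.10 CPM after CHIR99021 against 11.1 and 8.28 CPM in mTeSR1 (log2 change -0.99, FDR 0.492). MSX1, also in that list, went the other way, at 1.57 and 0.593 CPM after CHIR99021 against 0.105 and 0.113 CPM in mTeSR1, where it was under the floor of 3 counts (FDR 0.471). Neuronal markers (7 tested of 10, NEUROD1 at 0) summed to 371 and 322 CPM after CHIR99021 against 402 and 344 CPM in mTeSR1. Fibroblast and mesenchyme markers (7 tested of 10, DCN at 0) summed to 522 and 587 CPM after CHIR99021 against 635 and 730 CPM in mTeSR1, with COL1A1 at a log2 change of -0.52 (FDR 0.471) and PDGFRA at -1.05 (FDR 0.542). Blood and endothelial markers (3 tested of 10, HBE1 and HBG1 at 0) summed to 150 and 166 CPM after CHIR99021 against 128 and 243 CPM in mTeSR1. The sums outside the neural crest list also rested largely on 1 gene each. In CHIR99021 6 h KRT18 of the extraembryonic list was at 231 and 237 CPM and TUBB3 of the neuronal list at 298 and 268 CPM. THY1 of the fibroblast list was at 256 and 336 CPM and KDR of the endothelial list at 147 and 164 CPM. No marker in these 5 lists was called by edgeR, DESeq2 called FOXD3 alone, and the part of other cell types in the results was not tested.

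The response to CHIR99021 was then set against that to WNT3A, the ligand that acts at the receptor, at the same time. Both treatments share the mTeSR1 libraries as controls, so the direct contrast of the 2 treatments is the test of their difference. At 6 h, 3 genes (0.0197%) differed between CHIR99021 and WNT3A by edgeR's test, 1 higher (0.00656%) and 2 lower (0.0131%). An unadjusted p under 0.05 was found for 1837 genes (12%), and by DESeq2 16 genes were higher and 84 lower. No gene was called when any 1 of the 4 libraries of this contrast was left out.

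SMARCA2 was at 17.1 and 37.3 CPM after CHIR99021 and 49.8 and 118 CPM after WNT3A (log2 difference -1.60, SE 0.16, FDR 0.0278). The value of 118 CPM is from the length-skewed WNT3A library of repeat 2, and the longest SMARCA2 transcript has 7061 bases. With a transcript length offset 7 genes were called in this contrast, including the 3 of the main fit. It was not run without both length-skewed libraries. NEDD9, a scaffold protein of focal adhesions, was at 7.68 and 7.12 CPM after CHIR99021 against 31.0 and 32.2 CPM after WNT3A (log2 difference -2.09, SE 0.21, FDR 0.0278). Its level in mTeSR1 was 4.39 and 6.18 CPM, and NEDD9 was not called for CHIR99021 against mTeSR1 (log2 change 0.49, FDR 0.632). AL513523.9, an identifier off the primary assembly, was at 3.46 and 2.80 CPM after CHIR99021 and listed at 0 in both WNT3A 6 h libraries, and it is uncertain as reads of such copies can be divided among identifiers.

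All 21 genes that rose with CHIR99021 were also called higher for WNT3A 6 h against mTeSR1, where 140 genes (0.918%) were, and the controls are shared. Of the 21 genes, 20 had a higher mean after WNT3A at 6 h, AC010132.3 being the exception, and the difference passed the test for SMARCA2 only. The median log2 difference over all genes tested was -0.004. SP5 averaged 59.2 ± 2.55 CPM (SD, n = 2) after CHIR99021 and 243 CPM after WNT3A, from libraries at 311 and 175 CPM (log2 difference -1.98, SE 0.44, FDR 0.397). KLF5 was at 7.35 and 5.61 CPM after CHIR99021 against 19.2 and 20.6 CPM after WNT3A (log2 difference -1.62, SE 0.24, FDR 0.18). NKX1-2 was at 228 and 165 CPM after CHIR99021 against 641 and 434 CPM after WNT3A (log2 difference -1.45, SE 0.28, FDR 0.39), which is apart in both repeats without passing the threshold.

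For several called genes, among them FGF19, FOXB1 and NODAL, the libraries of both treatments overlapped. FGF19 was at 30.3 and 47.7 CPM after CHIR99021 against 40.8 and 43.7 CPM after WNT3A (log2 difference -0.16, SE 0.17, FDR 0.679). FOXB1 was at 48.6 and 74.2 CPM after CHIR99021 against 72.2 and 92.9 CPM after WNT3A (log2 difference -0.44, SE 0.14, FDR 0.412). TBXT was at 1.24 and 1.56 CPM after CHIR99021 against 13.2 and 9.23 CPM after WNT3A (log2 difference -2.97, SE 1.30, FDR 0.417). A single dose of each agent was used, and how much WNT3A and CHIR99021 stabilised β-catenin was not measured in these files.

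**Figure D5:**
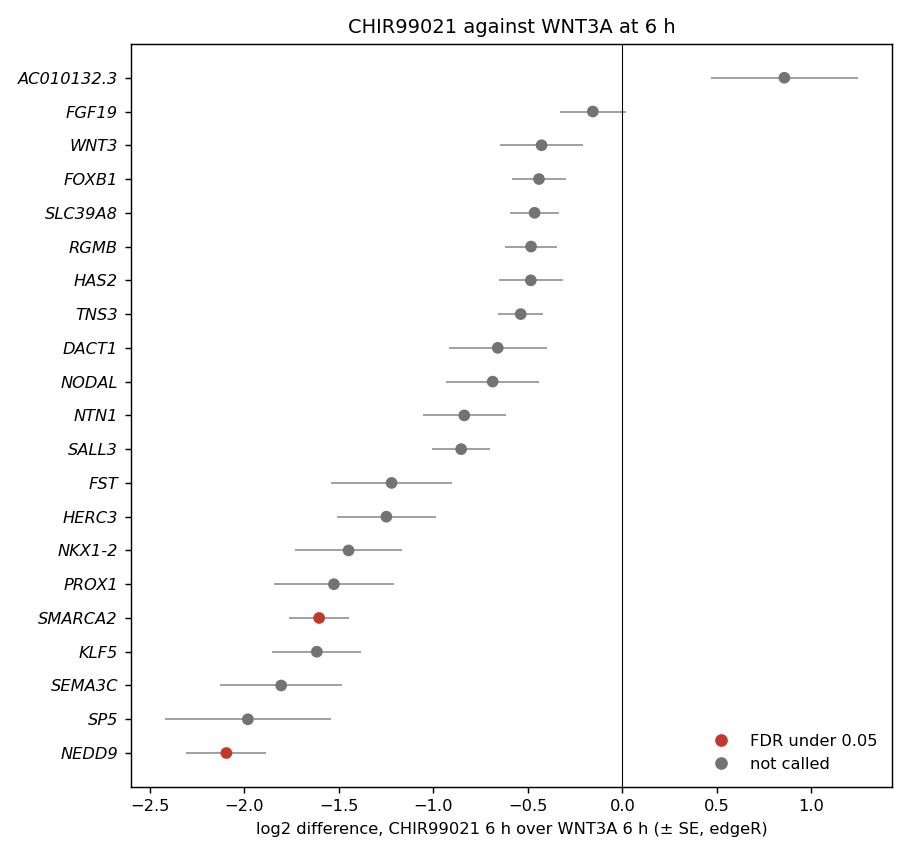
Log2 difference of CHIR99021 6 h over WNT3A 6 h (horizontal axis, points with SE bars from edgeR) for 20 of the 21 genes that rose with CHIR99021 and for NEDD9. All but AC010132.3 lie left of 0, and SMARCA2 and NEDD9 (red) passed the FDR threshold of 0.05.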

How the data were processed

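Gene-level estimated counts for 10 libraries were deposited by the authors, made with Salmon 1.8.0 on GRCh38 per the submitters' processing notes. Of the transcript set and the step to genes nothing is stated in the sources used here. The series text and the library protocol name different sequencers.

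Counts were summed over identifiers that share a symbol (37951 identifiers, 35940 symbols) and rounded. Genes were kept by edgeR's filterByExpr (minimum count 10, minimum total 15), which left 15251. edgeR 4.0.16 in R 4.3.3 gave trimmed-mean scaling and a robust quasi-likelihood test over all 10 libraries with the biological repeat as a block (4 residual degrees of freedom), with Benjamini-Hochberg adjustment. That the repeats pair the libraries comes from the design text. As a check, the Pearson correlation of same-numbered libraries' deviations was 0.261 to 0.595 in 6 pairings of groups. The value of 0.595 was for mTeSR1 with WNT3A 6 h, whose repeat 2 libraries are the length-skewed ones. There, pairing and a shared skew cannot be told apart. No replicate pair agreed within sampling noise, with a chi-square per degree of freedom of 21.5 in CHIR99021 6 h and 58.8 in mTeSR1. P-values measure the spread between these libraries, and floors of 3 counts cover counting error only. Ratios within a repeat use CPM + 0.5.

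Genes named are those called (1 is not reported here), the 12 lower genes of smallest p, up to 4 members of each list with the largest changes at 1 CPM or more, and fixed pathway genes. LGR5, CDX2, HOXB1, MSX1 and the untested streak members were added after their values were seen. The members, gene lists and tests were chosen with earlier results of these data known. Coordinates and lengths are from GENCODE release 29, promoters from RefSeq. Library strand is not stated in the sources used here, so overlapping genes were not separated. Alternatives were DESeq2 1.42.0, other scalings, filters, identifiers, libraries and a transcript length offset.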

Additional observations from a re-analysis of the deposited data

How the results depend on the processing

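The count of 21 genes for CHIR99021 6 h against mTeSR1 was 20 to 22 with other scalings, a minimum count of 50, no robust estimation or each identifier tested alone. It was 3 without the replicate block, 114 by DESeq2 with the block (21 shared) and 33 with no filter on low counts (18 shared). A fit of the 4 libraries alone, with 1 residual degree of freedom, gave 135 (21 shared). The count was 42 without CHIR99021 18 h (19 shared) and 46 with a transcript length offset (20 shared). Leaving out 1 replicate at a time gave 1 to 8. Leaving out both libraries skewed by transcript length, a setting chosen after seeing the data, gave 27 (12 shared). The 3 genes for CHIR99021 6 h against WNT3A 6 h became 1 without the replicate block, 100 by DESeq2, 10 with no filter, 0 by identifier, 16 without CHIR99021 18 h and 7 with the length offset, and 0 to 0 when 1 replicate was left out. The cause of these differences was not tested.

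Signs turned for 5 genes, none called against mTeSR1. Without both skewed libraries the log2 change was -0.099 for POU5F1, -0.19 for SOX2, -0.13 for GSK3A and 0.059 for GSK3B. SOX2 was at -0.0041 with the length offset. With 1 replicate left out at a time, the log2 change was -0.11 to 0.23 for SOX2, -0.064 to 0.21 for GSK3A and -0.23 to 0.33 for AL513523.9. With 2 libraries a group, small changes and genes near the floor of 3 counts were not resolved at this depth.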
